A study of Mus musculus with 6 samples.

Results

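The genes examined here were 10 regulators and markers of definitive endoderm, the germ layer that gives rise to the epithelium of the gut, lungs, liver and pancreas. They were Sox17, Foxa1, Foxa2, Gata4, Gata6, Hhex, Mixl1, Gsc and Cer1, together with Cxcr4, whose protein was used to sort the cells. Each was found by its exact symbol among the 24393 genes listed in every library, and 10 of 10 were present. RNA had been sequenced from KH2 mouse embryonic stem cells, labelled with strain C57/BL/6, after differentiation towards endoderm, in 3 libraries labelled CONTROL and 3 labelled HOXA13. The HOXA13 cells carried the human HOXA13 gene, with an N-terminal FLAG tag, under a doxycycline-inducible promoter in selected clones. During differentiation all cultures were kept on M15, a feeder line of mesodermal origin, without LIF and with Activin-A, basic FGF, CHIR and Noggin. Doxycycline at 1.25 µg/ml was given from day 4, the sort of day 6 kept cells with CXCR4 and E-cadherin on their surface, and these were cultured for 1 more day with doxycycline before RNA was taken. Whether the CONTROL cells carried an empty construct and also received doxycycline is not spelled out in the labels or the methods.

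The libraries held between 12279884 and 17331638 counts. A row under the human identifier ENSG00000106031, which the files do not pair with a symbol, had 0 counts in each CONTROL library and between 2497 and 7666 counts in the HOXA13 libraries, whereas the mouse gene Hoxa13 had at most 10 counts in any library. Levels are given as CPM, a library's counts scaled to its TMM-normalised size. In this unit 3 counts, taken as the detection floor, are worth 0.176 to 0.240 depending on the library, and the floor covers counting error only. CONTROL replicate 2 stood apart from the other CONTROL libraries. Across the 13600 tested genes, its Spearman rho was 0.908 with CONTROL replicate 1 and 0.931 with CONTROL replicate 3, but between 0.951 and 0.961 with the HOXA13 libraries. For the regulators and the gene lists, edgeR calls are therefore given with and without it. Since this library was singled out for its likeness to the HOXA13 libraries, leaving it out favours differences between the groups. Without it 14.2% of all tested genes passed in edgeR, beside 0.309% with all 6 libraries. Calls made without it are given as a description of how the results depend on this library. The p-values measure the spread between the 3 replicates of each group, which the study calls biological replicates.

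Definitive endoderm forms at gastrulation from epiblast cells that receive Nodal signals, which Activin-A mimics in culture. Signalling through SMAD2 and SMAD3 turns on Eomes, Mixl1 and Gsc, transcription factors of the mesendoderm, a stage shared by early mesoderm and endoderm. The endodermal programme is then carried by the HMG box factor SOX17, the forkhead factors FOXA1 and FOXA2, and the zinc finger factors GATA4 and GATA6. HHEX and the secreted antagonist CER1 mark its anterior part, and the chemokine receptor CXCR4 is found on definitive but not on visceral endoderm, the extraembryonic layer that expresses many of the same transcription factors.

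The 10 genes were weakly transcribed in these sorted cells, and the mean of each over the 6 libraries lay below the median level of the tested genes. Levels were compared between genes as CPM per kb of annotated exon length, for which 91.5% of the tested genes could be matched. The median over the 12444 matched genes was 8.16 CPM per kb. Gata6 was highest among the regulators, at 6.15 ± 4.04 CPM per kb (SD, n = 6), followed by Gata4 at 5.70 ± 2.18, and 43.7% and 42.0% of the tested genes lay below them. In CONTROL alone Gata6 averaged 8.43 ± 4.57 CPM per kb, above the median of the tested genes, with replicates 1 and 3 at 10.9 and 11.2, and in HOXA13 it averaged 3.87 ± 2.08 (SD, n = 3 per group). Cxcr4 stood at 2.99 ± 1.72 CPM per kb and Hhex at 1.95 ± 1.01. Foxa2 and Foxa1 followed at 1.35 ± 0.613 and 1.22 ± 0.664 CPM per kb. Sox17 and Mixl1 were at 0.837 ± 0.522 and 0.835 ± 0.869 CPM per kb, with 12.8% and 12.7% of the tested genes below them. Gsc was at 0.294 ± 0.393 CPM per kb and Cer1 at 0. For every pair of neighbours in this order the ranges over the 6 libraries overlapped, and in the pair of Gata6 and Gata4, as in that of Sox17 and Mixl1, each gene was the higher in 3 libraries. Cdh1, which encodes the other sorting marker E-cadherin, was at 273 ± 147 CPM per kb over the 6 libraries, above 99.2% of the tested genes. Its groups did not overlap, at 159 ± 120.4 CPM per kb in CONTROL and 387 ± 23.5 in HOXA13 (SD, n = 3 per group), with a log2 fold change of 1.28 that did not pass in edgeR (adjusted p 0.351) or DESeq2 (0.104) but passed with limma voom (0.0114) and in edgeR without CONTROL replicate 2 (0.0216). Of all genes 20.0% had groups without overlap, 15.4% passed with limma voom and 14.2% passed in edgeR without CONTROL replicate 2. Since the cells were gated on E-cadherin as well, the transcript level of Cdh1 is not independent of how they were chosen. Across 15 alternatives the adjusted p of Cdh1 ranged from 0.0114 to 0.705. Its log2 fold change ranged from 0.81 (without CONTROL replicate 1) to 1.97 (without CONTROL replicate 2).

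**Figure D1:**
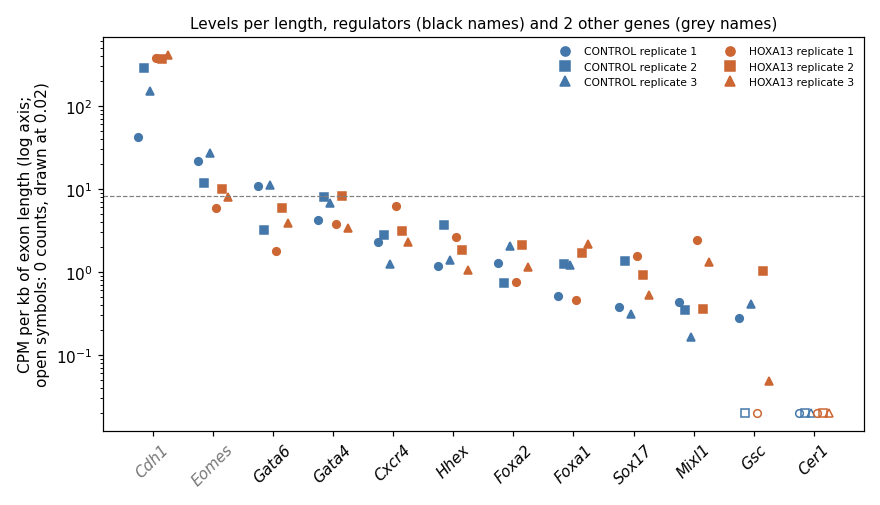
CPM per kb of exon length (log axis) of the 10 regulators (black names) and of Cdh1 and Eomes (grey names) in each of the 6 libraries, ordered by their mean, with CONTROL in blue, HOXA13 in orange and 1 symbol per replicate number. The dashed line is the median of the tested genes, 8.16 CPM per kb, and open symbols are libraries with 0 counts, among them all 6 for Cer1.

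Upstream sequences are shown for Cer1, which was not counted in any library, for Hhex, which has the most CpG dinucleotides of the 6 regulators with a RefSeq entry, and for Cxcr4, the sorting marker. The sequences are the 250 bases before the RefSeq transcription start (build GRCm38.p6), in which 6 of the 10 genes had an entry, with 8 start sites in all. Entries were not found for Sox17, Gata4, Gata6 and Mixl1. Capitals mark the CpG dinucleotides.
Cer1: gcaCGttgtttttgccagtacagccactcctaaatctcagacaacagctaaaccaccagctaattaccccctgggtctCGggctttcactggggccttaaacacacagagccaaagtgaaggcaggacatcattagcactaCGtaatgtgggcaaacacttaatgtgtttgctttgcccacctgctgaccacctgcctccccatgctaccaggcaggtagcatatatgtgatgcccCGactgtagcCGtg
Hhex: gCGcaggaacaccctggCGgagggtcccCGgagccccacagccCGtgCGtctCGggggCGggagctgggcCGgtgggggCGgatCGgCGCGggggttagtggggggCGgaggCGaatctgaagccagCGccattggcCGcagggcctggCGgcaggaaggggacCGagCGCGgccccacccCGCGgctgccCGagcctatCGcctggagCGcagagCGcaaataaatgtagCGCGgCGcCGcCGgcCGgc
Cxcr4: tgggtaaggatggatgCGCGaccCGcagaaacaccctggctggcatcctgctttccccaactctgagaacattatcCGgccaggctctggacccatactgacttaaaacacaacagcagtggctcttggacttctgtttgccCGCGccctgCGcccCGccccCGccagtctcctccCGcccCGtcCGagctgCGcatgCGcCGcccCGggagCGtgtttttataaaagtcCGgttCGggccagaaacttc
The Cer1 stretch lies at chr4:82885152-82885401 on the minus strand and holds 5 CpG dinucleotides, against a median of 6 over all 32851 upstream stretches in the table. That of Hhex, at chr19:37434591-37434840 on the plus strand, holds 32, and 95.4% of all stretches hold fewer. That of Cxcr4, at chr1:128592300-128592549 on the minus strand, holds 19, more than 80.3% of all stretches. CpG number did not order the levels, since Gsc, whose counts were near the floor, has 22 CpG dinucleotides and Foxa1 has 21. The letters TTTATTG and TTTACGA, stretches that HOX13 proteins are known to bind, were searched on both strands and occur in 0 of the 8 upstream stretches of the 6 genes, and in 4.20% and 0.478% of all stretches. The forkhead letters TGTTTNC occur 2 times in the Cer1 stretch and 1 time each in those of Cxcr4 and Foxa1, and in 17.8% of all stretches. The letters AGATAA and ACAAAG were searched as well. AGATAA occurs 1 time, in 1 of the Foxa2 stretches, and in 9.99% of all stretches. ACAAAG occurs 1 time in that same Foxa2 stretch and 3 times in the Foxa1 stretch, and in 16.5% of all stretches. These matches describe the letters in the window only.

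The mesendoderm factors among the 10 genes were the lowest of those with any counts, together with Sox17. Mixl1, a homeobox gene of the primitive streak (mm9, chromosome 1, 182623174 to 182627165, minus strand), stood at 0.993, 0.800 and 0.375 CPM in the CONTROL libraries and at 5.53, 0.820 and 2.97 CPM in the HOXA13 libraries, from between 5 and 72 counts. Here and from here on, values per library are in the order of replicates 1, 2 and 3. HOXA13 replicates 1 and 3 stood above every CONTROL library, while HOXA13 replicate 2 lay within the CONTROL range. Gsc, the homeobox gene goosecoid of the organizer (chromosome 12, 105709419 to 105711537, minus strand), was counted 5, 0 and 7 times in the CONTROL libraries and 0, 22 and 1 times in the HOXA13 libraries. Gsc exceeded 3 counts in 3 libraries, of both groups, and did not pass the expression filter.

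Sox17, which specifies and maintains endoderm (chromosome 1, 4481009 to 4486494, minus strand), stood at 1.21, 4.32 and 0.975 CPM in the CONTROL libraries and at 4.84, 2.87 and 1.64 CPM in the HOXA13 libraries. The highest libraries of their groups, CONTROL replicate 2 and HOXA13 replicate 1, were 3.58- and 1.69-fold above the next of their own group, and the groups overlapped. Foxa1, a forkhead pioneer factor (chromosome 12, 58641618 to 58647108, minus strand), stood at 1.63, 4.00 and 3.90 CPM in the CONTROL libraries and at 1.46, 5.39 and 6.91 CPM in the HOXA13 libraries, so that 1 library of each group was low. Its paralog Foxa2, which is needed for the node and the foregut (chromosome 2, 147868613 to 147872705, minus strand), stood at 3.05, 1.76 and 4.87 CPM in the CONTROL libraries and at 1.77, 5.04 and 2.73 CPM in the HOXA13 libraries. The groups covered nearly the same range. The ratio of Foxa1 to Foxa2 per exon length varied between 0.398 and 1.69 in CONTROL and between 0.614 and 1.88 in HOXA13.

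Gata4 and Gata6, which act in endoderm as well as in heart and other mesoderm, were the only regulators above 10 CPM on average. Gata4 (chromosome 14, 63817759 to 63890529, minus strand) stood at 16.5, 30.9 and 26.7 CPM in the CONTROL libraries and at 14.7, 31.9 and 13.1 CPM in the HOXA13 libraries, with overlap. Gata6 (chromosome 18, 11052508 to 11085633, plus strand) stood at 34.9, 10.1 and 35.8 CPM in the CONTROL libraries and at 5.69, 19.0 and 12.4 CPM in the HOXA13 libraries. CONTROL replicates 1 and 3 stood above the other 4 libraries, and CONTROL replicate 2 lay within the HOXA13 range. The ratio of Gata6 to Gata4 per exon length stood at 2.58, 0.399 and 1.64 in the CONTROL libraries and at 0.474, 0.729 and 1.16 in the HOXA13 libraries, also with overlap. The exons of Gata6 share 58 bases with the opposite-strand gene 1010001N08Rik, which had at most 18 counts in a library, and the strand setting of the counting is not stated.

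Hhex, a homeobox gene of anterior endoderm (chromosome 19, 37507377 to 37515218, plus strand), stood at 4.47, 14.0 and 5.32 CPM in the CONTROL libraries and at 10.1, 6.97 and 4.00 CPM in the HOXA13 libraries, highest in the same libraries as Sox17. Cer1, the secreted antagonist (chromosome 4, 82527655 to 82531052, minus strand), had 0 counts in all 6 libraries, which allows a level of up to 0.176 to 0.240 CPM. Cxcr4, the receptor of the chemokine CXCL12 (chromosome 1, 130484776 to 130488870, minus strand), stood at 4.11, 5.04 and 2.25 CPM in the CONTROL libraries and at 11.3, 5.62 and 4.12 CPM in the HOXA13 libraries. HOXA13 replicate 1 was 2.01-fold above the next library and the groups overlapped. Since the cells were gated on the CXCR4 protein a day before RNA was taken, its transcript level is not independent of how the cells were chosen.

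**Figure D2:**
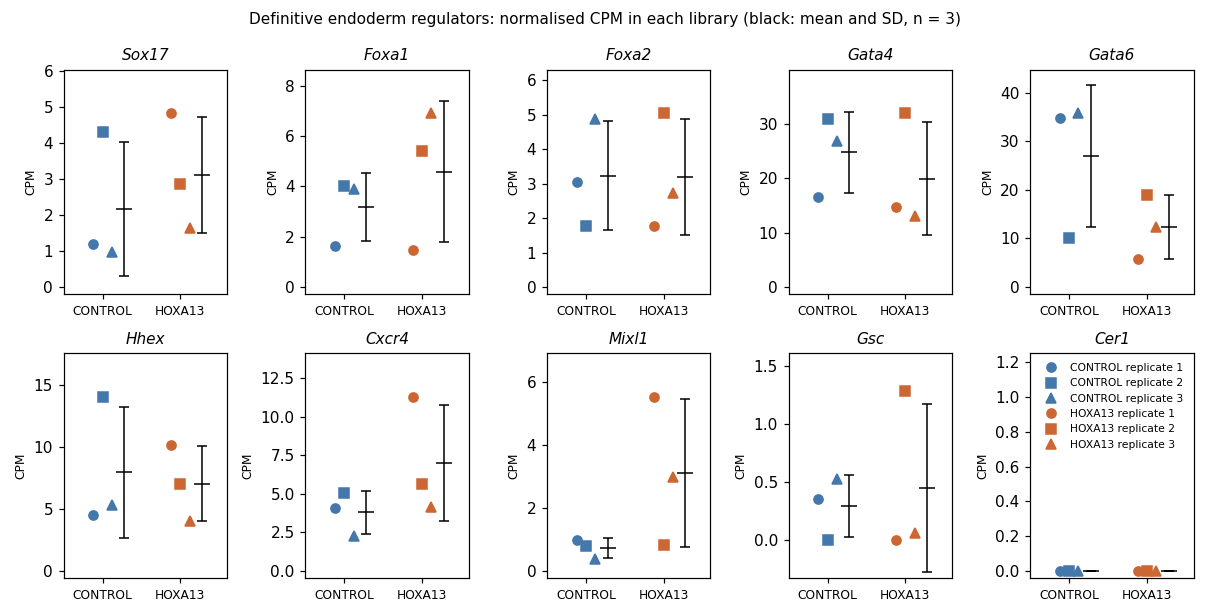
CPM of each of the 10 regulators in the 3 CONTROL (blue) and 3 HOXA13 (orange) libraries, with the mean and SD of each group (n = 3) in black. For all 9 genes with counts the groups overlap, and CONTROL replicate 2 (square) lies apart from the other CONTROL libraries for Sox17, Gata6 and Hhex.

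The comparison of HOXA13 with CONTROL asked whether forced HOXA13 altered the endodermal programme of the sorted cells, and 0 of the 8 tested regulators passed. The 8 genes were those that met the expression filter, and Gsc and Cer1 did not meet it. By the quasi-likelihood test of edgeR, adjusted by Benjamini-Hochberg over 13600 genes, 0.309% of all genes passed an adjusted p of 0.05, and the lowest adjusted p among the regulators was 0.377. None of the 8 had an unadjusted p under 0.05, compared with 14.1% of all tested genes, and 0 of the 8 had groups without overlap, compared with 20.0% of all. DESeq2 also called 0 of the 8, where it called 5.05% of all genes. In bulk RNA, fewer cells of a type and less RNA per cell cannot be told apart, and this holds for each level given here.

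The estimates were wide, so that sizeable changes in either direction remained within the intervals. Mixl1 had the largest log2 fold change, with levels from 0.722 ± 0.316 to 3.11 ± 2.36 CPM (SD, n = 3 per group) and a value of 2.09 (95% interval -0.09 to 4.27, edgeR adjusted p 0.377). Gata6 had the largest in the other direction, with levels from 26.9 ± 14.6 to 12.4 ± 6.65 CPM (SD, n = 3 per group) and a value of -1.12 (95% interval -2.42 to 0.19, adjusted p 0.434). Without CONTROL replicate 2 the log2 fold change of Gata6 was -1.52 and passed in edgeR (adjusted p 0.0439), in a fit in which 14.2% of all genes passed and 6.32% passed as lower, and it also passed with limma voom and sample quality weights (-1.25, adjusted p 0.0444, where 15.4% of all genes passed and 6.34% passed as lower). Across 15 alternatives the adjusted p of Gata6 ranged from 0.0439 to 0.769. Cxcr4 had a log2 fold change of 0.88 (95% interval -0.41 to 2.18) and Sox17 one of 0.52 (-1.38 to 2.43). The interval of Foxa1 was -1.11 to 2.17, that of Foxa2 -1.59 to 1.55, and that of Hhex -1.49 to 1.13. Gata4 had the narrowest interval, -1.24 to 0.62 around a log2 fold change of -0.31. The median over the 8 genes was 0.25, beside -0.01 over all tested genes, with 4 higher and 4 lower in HOXA13. Without CONTROL replicate 2 the log2 fold changes were 2.15 for Mixl1, 1.49 for Sox17, 1.12 for Cxcr4, 0.72 for Foxa1, 0.50 for Hhex, -0.13 for Gata4 and -0.33 for Foxa2, and of the regulators Gata6 alone passed. Leaving out HOXA13 replicate 1 gave 1.37 for Mixl1, 0.94 for Foxa1, 0.35 for Cxcr4, 0.25 for Foxa2 and 0.05 for Sox17. The same fit gave -0.15 for Gata4, -0.54 for Hhex and -0.79 for Gata6, and 0 of the 8 passed.

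**Figure D3:**
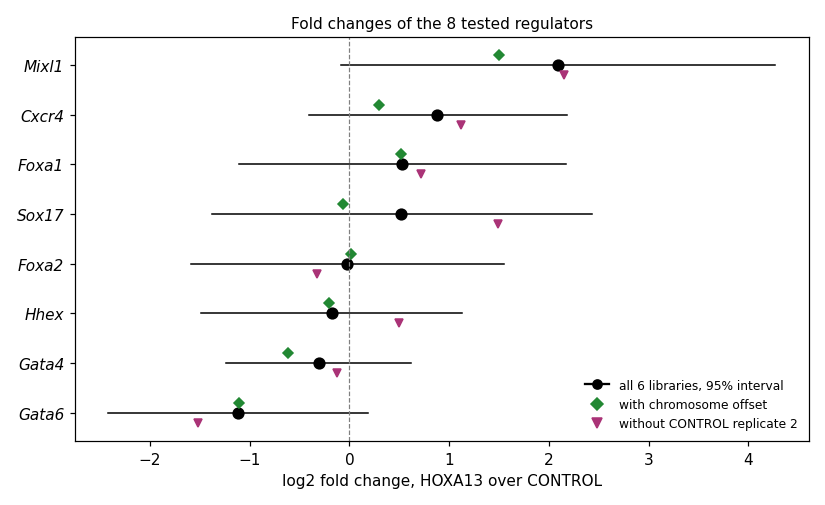
Log2 fold change of HOXA13 over CONTROL for the 8 tested regulators, with the edgeR estimate from all 6 libraries and its 95% interval (black), the estimate with a chromosome offset (green) and the estimate without CONTROL replicate 2 (purple). Every interval includes 0, and the offset lowers the estimates of Mixl1, Cxcr4 and Sox17, all on chromosome 1.

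The estimates were also made with an offset per library and chromosome. Mixl1, Cxcr4 and Sox17 lie on chromosome 1, where the median log2 fold change was 0.53 over 470 genes (those averaging 16 CPM or more). Subtracting from each library its median deviation per chromosome gave 1.50 for Mixl1, 0.30 for Cxcr4 and -0.07 for Sox17, so that Sox17 changed sign. This offset lowers genes of chromosome 1 by construction, and 0 of the 8 regulators passed with it, beside 0.00735% of all genes. Gata4 lies on chromosome 14, which had a median of 0.33, and its log2 fold change was -0.62 with the offset. The chromosome 14 deviation split the CONTROL group, with replicate 1 at -0.4, replicate 2 at 0.2 and replicate 3 at -0.32. CONTROL replicate 2 thus lay inside the HOXA13 range of 0.14 to 0.22. For chromosome 1 the groups stood apart, with no CONTROL library above -0.22 and no HOXA13 library below 0.25. With the offset, the median over the 8 regulators was -0.02. Medians of the chromosomes of the other regulators were between -0.05 and 0.02. The offset estimate of Gata6 was -1.11.

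Among themselves, the regulators differed in which libraries were highest. Sox17 and Hhex had their 2 highest levels in CONTROL replicate 2 and HOXA13 replicate 1, and Gata6 and Foxa2 had their 2 lowest levels in the same pair of libraries. This arrangement was noticed after the values were seen and is given as a description. The sum over the 10 genes was between 67.2 and 80.7 CPM in CONTROL and between 48.0 and 78.8 CPM in HOXA13, with overlap. Markers of other cell types moved with these libraries. The pluripotency list (17 genes, 0 of them at 0 counts throughout) summed to 246, 2156 and 423 CPM in the CONTROL libraries and to 1334, 879 and 869 CPM in the HOXA13 libraries, in the order of their replicate numbers, highest in the same pair of libraries as Sox17 and Hhex. The mesenchymal list (16 genes, 0 of them at 0 throughout) summed to 12464, 2852 and 10093 CPM in the CONTROL libraries and to 2375, 6100 and 6120 CPM in the HOXA13 libraries, lowest in the same pair and highest in CONTROL replicates 1 and 3, as was Gata6. With all 6 libraries edgeR called 0 genes of either list. Leaving out CONTROL replicate 2, it called 8 of 16 tested pluripotency genes as higher, beside 7.92% of all genes. Their median log2 fold change moved from -0.13 to 1.82. In the same fit 6 of 15 tested mesenchymal genes were called lower, beside 6.32% of all genes. The part of these cells in the levels of the regulators was not tested.

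**Figure D4:**
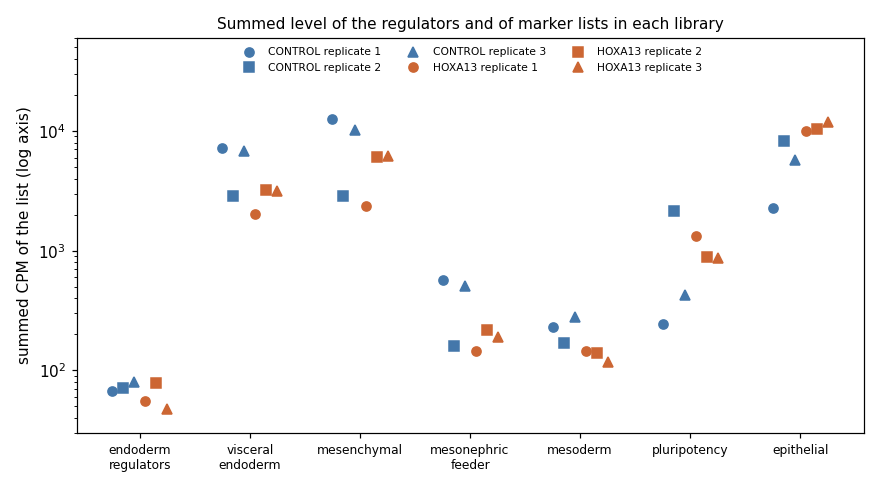
Summed CPM (log axis) of the 10 endoderm regulators and of 6 marker lists in each of the 6 libraries, with CONTROL in blue, HOXA13 in orange and 1 symbol per replicate number. The regulators sum to between 48.0 and 80.7 CPM, and CONTROL replicate 2 (blue square) lies among the HOXA13 libraries in the visceral endoderm, mesenchymal and mesonephric feeder lists.

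The visceral endoderm list bears on Gata4, Gata6, Sox17 and Hhex, which that tissue also expresses. Of its 20 genes found, 4 were at 0 counts in all libraries, namely Afp, Ttr, Apoa4 and Apoc2, which encode secreted plasma proteins. Other apolipoprotein genes of the list were counted at low numbers, Apoa2 14 to 41 times, Apom 3 to 29 times, Apob up to 35 times and Apoa1 up to 12 times per library. The genes of the endocytic receptors of this tissue, which kidney epithelium shares, were present, with Cubn between 5.70 and 9.15 CPM, Lrp2 between 84.9 and 285 CPM and Amn between 0.117 and 2.77 CPM. The list summed to between 2866 and 7168 CPM in CONTROL and between 2006 and 3210 CPM in HOXA13, most of it from the basement membrane genes Sparc, Col4a1 and Col4a2, which mesenchymal cells also express. The counts for this list and the next 3 are to be read against the shares of all genes that the same rules take, 14.1% at an unadjusted p under 0.05 in edgeR, 5.05% with DESeq2 and 15.4% with limma voom, while 20.0% of all genes have groups without overlap. The median log2 fold change of the 15 tested genes of the visceral endoderm list was -0.96, and 0 passed in edgeR (4 at an unadjusted p under 0.05), 3 in DESeq2 and 5 with limma voom. Without CONTROL replicate 2 the median was -1.32 and edgeR called 7 of the 15, all lower, beside 6.32% of all genes. These 7 were Lrp2, Dab2, Thbd and the basement membrane genes Lama1, Sparc, Col4a1 and Col4a2. With all 6 libraries the tested apolipoprotein genes Apoa2, Apob and Apom had log2 fold changes of -0.16, -0.02 and 0.95. Those of the receptor genes Cubn, Lrp2 and Amn were -0.45, -1.08 and -1.35. Markers of the mesonephric feeder cells (12 genes, 0 of them at 0 throughout) summed to between 159.6 and 571 CPM in CONTROL and between 145 and 216 CPM in HOXA13, and 9 of 9 tested were lower in HOXA13, with 0 past the threshold in edgeR (1 at an unadjusted p under 0.05) and 1, Cdh2, in DESeq2 and with limma voom, so that the unadjusted and limma voom counts were no more than the shares over all genes. Cdh2 was also the 1 gene of this list that edgeR called without CONTROL replicate 2. Of 14 mesoderm markers Msgn1 was at 0 throughout, and the sums were 169 to 278 CPM in CONTROL against 118 to 145 CPM in HOXA13, which did not overlap. This separation turned on T, which held 32.9 of the 169 CPM of CONTROL replicate 2 and 2.69 to 10.8 CPM in HOXA13. Of the 10 tested mesoderm genes 0 passed in edgeR (5 at an unadjusted p under 0.05), 3 of 11 in DESeq2 and 5 with limma voom. In each of the latter 2 counts 1 gene, Tbx20, was higher in HOXA13 (log2 fold change 1.31 in edgeR) and the others were lower. Both methods called Kdr (-1.51 in edgeR) and Nkx2-5 (-3.78, from 3 to 5 counts in the HOXA13 libraries) as lower. Limma voom also called Hand1 (-1.21) and Twist1 (-1.15). Leaving out CONTROL replicate 2, edgeR called 2 mesoderm genes as higher (T and Tbx20) and 3 as lower. In that fit 7.92% of all genes passed as higher and 6.32% as lower. The epithelial sums, 2290 to 8202 CPM in CONTROL against 10069 to 11935 CPM in HOXA13, also separated, with 15 of 15 genes higher and 0 past the threshold in edgeR (9 at an unadjusted p under 0.05), 2 in DESeq2 and 13 with limma voom. In edgeR without CONTROL replicate 2, 12 of the 15 epithelial genes were called higher, beside 7.92% of all genes. The median log2 fold change of this list was 1.18 with all 6 libraries and 1.87 without CONTROL replicate 2. The list includes Cdh1, whose protein the cells were gated on.

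The genes whose pattern over the 6 libraries was most like that of a regulator were taken from 10728 genes averaging 5 CPM or more, by Pearson's r of log2(CPM + 1). With 6 points from shared libraries and this many candidates high values are easily reached, and the values are a description. For Gata6 they were Efnb2 (r = 0.998), which encodes the guidance ligand ephrin-B2, B4galt7 (0.997) and Opa1 (0.997). Efnb2 stood at 233, 74.0 and 224 CPM in the CONTROL libraries and at 42.5, 123 and 92.0 CPM in the HOXA13 libraries. For Sox17 they were Gnpda1 (r = 0.993), Mrfap1 (0.988) and Pkp4 (0.987). For Hhex they were Ccdc14, Ilf2 and Pxmp2, and for Cxcr4 Chd1l, Rnf219 and Fancb, with r between 0.982 and 0.996. Mixl1 was most like Pam, Zwint and Kctd18, and Foxa1 most like Capn5, Yars and Pisd-ps2. Foxa2 was most like Dennd4c, Golga4 and Kdm2a, and Gata4 most like Amz1, 2810474O19Rik and Clpx.

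The Nodal pathway and the mesendoderm genes around the 10 regulators were followed in a list of 22 genes, of which 20 were tested. Fst, Eomes, Otx2 and Dkk1 were lower in HOXA13 and Lefty1 was higher, each without overlap between the groups, but 0 of the 20 passed in edgeR over all genes and 4 had an unadjusted p under 0.05, beside 14.1% of all genes. With Smad4, which was lower, 5 of the 20 were lower and 1 higher without overlap, beside 8.52% and 11.5% of all genes. The median log2 fold change of the list was -0.53, beside -0.01 over all genes, with 6 higher and 14 lower. This lean turned on CONTROL replicate 2, since the median was 0.04 without it, and it was -0.06 with limma voom and -0.11 with the replicate number as a block. DESeq2 called 4 of 19 (Eomes, Otx2, Fst and Dkk1, all lower), where it called 1.94% of all genes as lower. Without CONTROL replicate 2 edgeR called 7 of 20, namely Foxh1, T, Lefty1 and Lefty2 as higher (7.92% of all genes) and Eomes, Fst and Dkk1 as lower (6.32%). In the same fit 8 of 16 tested pluripotency genes were called higher, and the part of such cells was not tested. The direction of T turned on CONTROL replicate 2, since with all 6 libraries its log2 fold change was -0.79, with 0.284, 32.9 and 0.825 CPM in the CONTROL libraries and 10.8, 2.69 and 6.18 CPM in the HOXA13 libraries.

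Fst encodes follistatin, which binds and inactivates activin. It stood at 33.2, 57.3 and 65.2 CPM in the CONTROL libraries and at 14.1, 17.2 and 8.37 CPM in the HOXA13 libraries, with a log2 fold change of -1.97 (95% interval -2.80 to -1.15, adjusted p 0.0754 and unadjusted p 0.000546 in edgeR). Eomes, the T-box factor at the head of the endodermal programme, stood at 89.0, 49.0 and 111 CPM in the CONTROL libraries and at 24.4, 41.9 and 33.0 CPM in the HOXA13 libraries, with a log2 fold change of -1.32 (95% interval -2.09 to -0.56, adjusted p 0.141). Per length it averaged 20.0 ± 7.54 CPM per kb in CONTROL and 7.97 ± 2.12 CPM per kb in HOXA13 (SD, n = 3 per group), where the latter is below the median tested gene. Eomes is also used in trophoblast, so that it is not a marker of endoderm alone.

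Otx2, a homeobox gene of anterior epiblast and endoderm, stood at 3.69, 4.96 and 1.35 CPM in the CONTROL libraries and at 0.615, 0.469 and 0.485 CPM in the HOXA13 libraries (log2 fold change -2.65, 95% interval -4.59 to -0.72, adjusted p 0.211). Dkk1, a secreted Wnt antagonist, stood at 25.5, 3.44 and 10.3 CPM in the CONTROL libraries and at 0.154, 2.52 and 2.30 CPM in the HOXA13 libraries (log2 fold change -2.96, adjusted p 0.239), with HOXA13 replicate 1 at 2 counts. Its log2 fold change was -2.05 without CONTROL replicate 1 and -3.41 without CONTROL replicate 2. Lefty1, a Nodal antagonist that is itself a Nodal target, was in the opposite direction, with 0, 4.00 and 0.900 CPM in the CONTROL libraries and 11.7, 7.38 and 10.1 CPM in the HOXA13 libraries (log2 fold change 2.58, 95% interval -0.06 to 5.22, adjusted p 0.367). It lies on chromosome 1 as well, and its log2 fold change was 1.99 with the chromosome offset. The value was 1.96 without CONTROL replicate 1 and 4.41 without CONTROL replicate 2 (adjusted p 0.441 and 0.0225 in edgeR). With limma voom it was 4.61 (adjusted p 0.0368). The transducers were among the most abundant genes of the list, and none of them passed. Smad2 stood at 127 ± 20.2 CPM in CONTROL against 122 ± 4.72 CPM in HOXA13 (SD, n = 3 per group), with a 95% interval of the log2 fold change from -0.43 to 0.32. Smad3, Smad4 and the activin receptor gene Acvr2a had log2 fold changes of -0.17, -0.25 and 0.27.

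**Figure D5:**
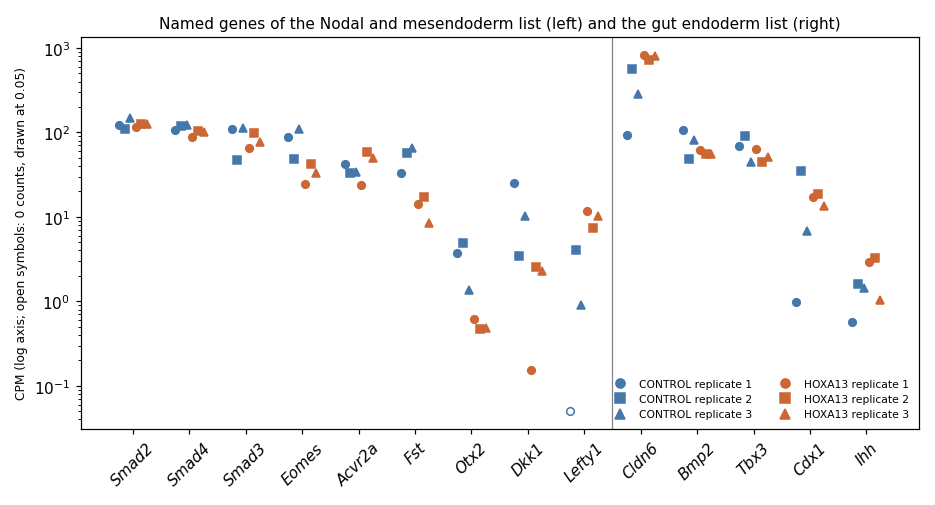
CPM (log axis) of named genes of the Nodal and mesendoderm list (left of the line) and of the gut endoderm list (right) in each of the 6 libraries, with CONTROL in blue, HOXA13 in orange and 1 symbol per replicate number. Eomes, Fst, Otx2 and Dkk1 are lower and Lefty1 and Cldn6 higher in all 3 HOXA13 libraries than in any CONTROL library, and the open symbol is Lefty1 in CONTROL replicate 1, at 0 counts.

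Genes of later gut endoderm were followed in a second list of 22 genes, of which 14 were tested, and edgeR called 0 of these, while 2 had an unadjusted p under 0.05, a share close to the 14.1% of all genes. DESeq2 called 0 of 15, and limma voom, which called 15.4% of all genes, called 3 of 14 (Cldn6 among those higher, and Bmp2 as lower). Genes of hepatic, pancreatic and intestinal derivatives were at differing levels, with Nepn at 0 counts in all 6 libraries, Hnf4a at most at 0.480 CPM, Pdx1 between 0.284 and 2.02 CPM, Isx between 0.638 and 4.16 CPM and Prox1 between 2.15 and 6.27 CPM. Abundant genes of the list included surface and signalling genes. Cldn6, a tight junction claudin of early epithelia, stood at 94.3, 557 and 283 CPM in the CONTROL libraries and at 833, 717 and 799 CPM in the HOXA13 libraries, without overlap (log2 fold change 1.33, adjusted p 0.306). The log2 fold change was 2.03 without CONTROL replicate 2 (adjusted p 0.0113 in edgeR) and 0.88 without CONTROL replicate 1. Cldn6 was lowest in CONTROL replicate 1, where the summed epithelial list was lowest as well, and the part of epithelial cell content was not tested. Bmp2 and Tbx3 had log2 fold changes of -0.45 and -0.35, with overlap. Cdx1, a caudal homeobox gene, stood at 0.993, 35.0 and 6.82 CPM in the CONTROL libraries and at 17.3, 18.7 and 13.6 CPM in the HOXA13 libraries, so that CONTROL replicate 2 stood above and the other CONTROL libraries below all HOXA13 libraries. Ihh, a hedgehog ligand of gut epithelium, stood at 1.20 ± 0.552 CPM in CONTROL against 2.41 ± 1.21 CPM in HOXA13 (SD, n = 3 per group), with overlap. Its log2 fold change was 1.01, and 0.45 with the chromosome offset.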

How the data were processed

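The 6 libraries were prepared from poly-A RNA with a stranded kit and sequenced at a service provider, and the reads were mapped to mm9 by TopHat2 and counted by HTSeq. The submitters' processing notes give TopHat2 2.0.14 and HTSeq 0.6.1p1, and the study's methods name another TopHat release. The files deposited by the authors hold raw counts by gene symbol, and each belongs to 1 library. The annotation, the strand setting and the rule for multiply aligned reads are not given in the sources used here. Of the 24393 listed genes, 6696 had no count in any library. The regulators and the gene lists were chosen with earlier results of these data known.

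Counts were modelled with edgeR 4.0.16 under R 4.3.3. The filter filterByExpr, given the groups, a minimum count of 10 and a minimum total of 15, left 13600 genes, and libraries were scaled by TMM, the trimmed mean of M-values. HOXA13 was compared with CONTROL over all 6 libraries by glmQLFit and glmQLFTest with group as the sole term, with Benjamini-Hochberg adjustment and a threshold of 0.05. Standard errors were derived from the F statistic, and 95% intervals from its degrees of freedom. The code was tested on simulated counts. Positions and exon lengths are those of GENCODE release M1 on mm9. Of the 50-base stretches of the regulators' protein-coding transcripts, 28 of 1690 in Cer1 and 0 in the other 9 genes occur in a transcript of another gene. Promoter sequences are from RefSeq on GRCm38.p6.

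Named genes were the 10 regulators, Cdh1 and, of each of the 2 pathway lists, every gene past the threshold, the 5 with the highest mean CPM and the 5 with the smallest p, as well as the 3 genes most like each tested regulator. Hnf4a, Pdx1, Nepn, Isx, Prox1, Tbx20, the visceral endoderm genes and the genes that only some alternatives called were named after their values were seen. A gene that this rule names in the gut endoderm list is not reported here. The alternatives run were DESeq2 1.42.0, which the study used, limma 3.58.1 voom with sample quality weights, the quasi-likelihood method of edgeR 4, other scalings and filters, the replicate number as a block, an offset per library and chromosome, and leaving out each library in turn.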

Additional observations from a re-analysis of the deposited data

How the results depend on the processing

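Genes past the threshold numbered 42 of 13600, but 722 with DESeq2, 2101 with limma voom, 106 with the edgeR 4 method, 163 with no filter on low counts, 9 when a mean of 50 counts was required, 1 with the chromosome offset, 0 with the replicate block (1392 at an unadjusted p under 0.05), and 0 to 2006 without 1 replicate, where 2006 came without CONTROL replicate 2 and the others gave at most 7. Of the regulators 0 passed, 1 (Gata6) with limma voom, and 0 to 1 without 1 replicate. Of the Nodal and mesendoderm list 0 passed, 4 with DESeq2, 5 with limma voom, 1 with the edgeR 4 method, 1 without a filter, and 0 to 7 without 1 replicate. Of the gut endoderm list 0 passed, 3 with limma voom, and 0 to 3 without 1 replicate. In these lists the calls made without 1 replicate all came without CONTROL replicate 2. The median log2 fold change of the tested regulators, 0.25, was 0.50 with DESeq2 and without a filter (9 genes each, Gsc included), -0.21 when a mean of 50 counts was required (5 genes), -0.02 with the chromosome offset, and 0.06 to 0.61 without 1 replicate. The median level of the 10 genes, 1.28 CPM per kb, was 1.16 to 1.42 without 1 replicate. Their cause was not tested, except that the stricter filter tests fewer genes.

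Of 355 estimates of the named genes under an alternative, 11 had the opposite sign. They were Sox17 with the chromosome offset (-0.07), Foxa2 with the edgeR 4 method (0.01), with the offset (0.02) and without CONTROL replicate 3 (0.39), HOXA13 replicate 1 (0.25) or HOXA13 replicate 3 (0.06), Hhex without CONTROL replicate 2 (0.50) or HOXA13 replicate 3 (0.08), Smad2 without CONTROL replicate 3 (0.05), and Cdx1 without CONTROL replicate 1 (-0.37) or 3 (-0.14). Over the fits without 1 replicate these genes ranged from 0.05 to 1.49 (Sox17), -0.55 to 0.39 (Foxa2), -0.54 to 0.50 (Hhex), -0.17 to 0.05 (Smad2) and -0.37 to 2.06 (Cdx1). The labels do not say whether the replicate numbers pair the samples. Deviations from the group mean correlated across genes at -0.257, -0.322 and 0.136 between samples of the same number. With 3 libraries per group these values cannot decide whether the samples were paired. With the replicate block 0 of the 8 regulators passed, and the median of their log2 fold changes was 0.15. Counts of 5 to 72 limit the precision for Mixl1, and Gsc and Cer1 cannot be compared at this depth.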
